A study of Canis lupus familiaris with 11 samples.

Results

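Canine osteosarcoma is a bone tumour whose cells make bone matrix, and it is studied both as tissue and as primary culture. The present values describe how the reads of a transcript are divided among its own exons, in tissue and in culture. An exon bin is a piece of an exon that remains after the overlapping transcripts of a gene have been flattened into pieces without overlap. Bins whose row joined several genes were left out, and a bin was kept when its mean deposited value over all 11 libraries was at least 10 and its gene had at least 10 such bins. The position of a bin was its rank among the kept bins of its gene, from 0 to 1, and the members were the bins at positions from 0.2 to 0.8. They were 38959 bins of 3928 genes, out of 217945 bins of 24390 rows of genes in the table. The relative exon use of a member is log2(value + 1) minus the mean of log2(value + 1) over the members of the same gene in the same library. It therefore does not change when a whole gene rises or falls, as long as its values are well above the added 1. The members were thus selected on their mean deposited value, and the lowest mean among them was 10.002 while the highest mean among the bins left out was 9.9997.

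Poly(A) RNA had been sequenced from 8 tumours of the dog and from 3 osteosarcoma cell lines that were primary cultures, all from newly diagnosed dogs before chemotherapy. Each library stands for 1 tumour or 1 culture. RNA of the tissues 0320, 0460, 1033 and 1091 had been prepared by the RNeasy Fibrous Tissue Mini Kit. TRIzol had been used for DOS-119, DOS-126, DOS-127 and DOS-71. The cell lines OSCA-30, OSCA-32 and OSCA-40 had all been prepared by the RNeasy Mini Kit. Kit and origin of the RNA therefore cannot be told apart. The dogs of the tissues belonged to 8 breeds or mixes, 7 were female and 1 was male, and their age at diagnosis ran from 4 years 6 months to 12 years 6 months. The cell lines came from a German Shepherd, a Great Pyrenees and a Saint Bernard, 2 of them female, with an age at diagnosis from 5 years 8 months to 8 years 7 months. The labels name osteoblastic osteosarcoma for 5 of the 8 tissues and for 2 of the 3 cell lines, and tissue 1033 was a lung metastasis. Under treatment the labels give CARBO for 0460 and 1033, AMP for 1091 and OSCA-40, PALL for DOS-127, EUTH at Dx for 0320 and DOS-119, and SOC for the remaining libraries. A tissue also holds stromal, vascular and immune cells, whereas a culture holds the cells that grew out. Markers of these cells could not be examined, because the identifiers of the table were not paired with their symbols.

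The libraries held between 3123757 and 24902774 counted reads, and the smallest were DOS-71 with 3123757 and OSCA-32 with 3471461. The median number of reads per member was 10 in DOS-71 and 13 in OSCA-32, against 26 to 92 in the other 9 libraries. The median SD of relative use was 0.29 among the tissues and 0.22 among the cell lines, while counting alone would give a median SD of 0.28 and 0.26. The observed spread of a typical member includes the counting error. Its median was close to this error among the tissues. Among the cell lines each SD rests on only 3 libraries, and the median of such SDs tends to fall below the true spread. The lower value there therefore does not show a spread under the counting error. Of the members, 3466 had a mean under 10 in the cell lines and 1825 had a mean under 10 in the tissues, and these had passed the filter only through the other kind of sample.

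Relative exon use can differ between samples through alternative splicing, alternative promoters and alternative polyadenylation, each of which exchanges some exons of a transcript for others. It can also differ through the evenness of read coverage. In libraries made from poly(A) RNA, transcripts that are broken or incompletely copied lose their 5′ exons before their 3′ exons, because the poly(A) tail at the 3′ end is the handle by which they are captured. Such a loss changes all exons of a gene in order of their position, whereas the skipping of an exon changes this exon alone. The members exclude the outer bins of each gene at both ends, which limits but does not remove an effect of position.

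The difference between culture and tissue followed the position of an exon in its transcript. Symbols and strands were available for 35 of the genes through the study's lists of stably expressed genes, and these genes held 338 members. In them, 5′ members had a higher relative use in the cell lines and 3′ members had a higher relative use in the tissues. From position 0.2 to 0.3, counted from the 5′ end, the median difference of cell line minus tissue was 0.29 on the log2 scale, and 55 of 59 members had a positive difference. The median difference was 0.21 from position 0.3 to 0.4 and 0.11 from 0.4 to 0.5. It was -0.05 from 0.5 to 0.6 and -0.17 from 0.6 to 0.7. From position 0.7 to 0.8 it was -0.31, and 4 of 62 members had a positive difference. After a linear trend on position had been removed for each gene and library, the medians of the 6 bands lay between -0.02 and 0.01. This removal leaves no slope in any gene, so small medians follow largely from it. They are no separate evidence of an effect of position, and show only that little curvature was left. Relative use is also centred on its gene, so a higher use of the 5′ members must be balanced by a lower use elsewhere.

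**Figure D1:**
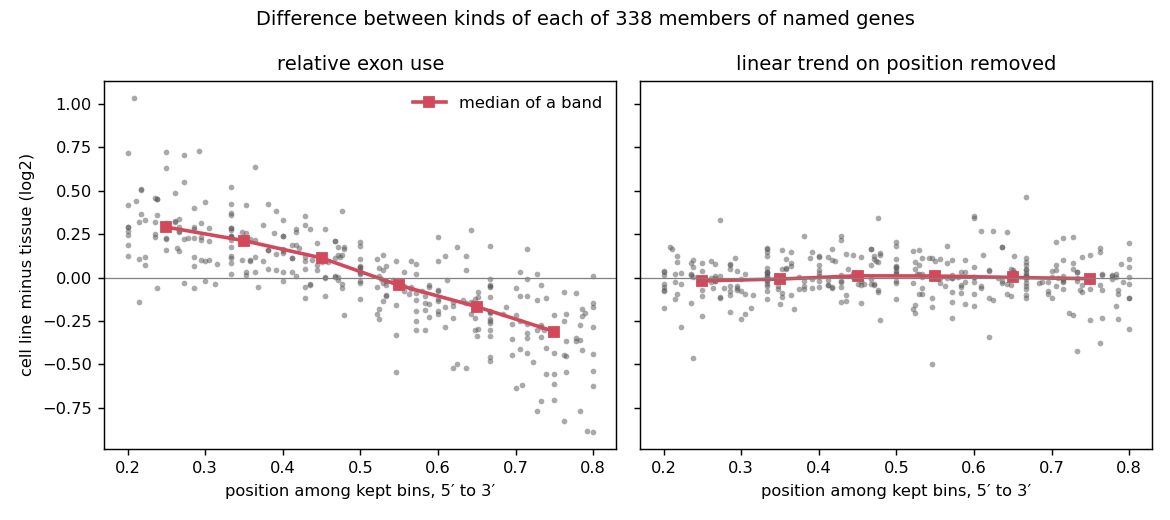
Difference of relative exon use, cell line minus tissue on the log2 scale, of each of the 338 members of the 35 named genes against its position from the 5′ to the 3′ end (points), with the median of each band of 0.1 (red squares). On the left the medians fall from 0.29 to -0.31. On the right, after removal of a linear trend on position, they lie between -0.02 and 0.01, which follows largely from this removal.

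The slope of relative use along the gene put this pattern into 1 value per gene and library, namely the change in log2 units from the first to the last kept bin, read from the 5′ to the 3′ end. The median slope over the 35 genes was 2.03 in 0460, 1.92 in DOS-126, 1.65 in 1091, 1.43 in 0320 and 1.27 in 1033. It was 0.85 in DOS-119, 0.81 in DOS-127 and 0.79 in DOS-71. The cell lines had median slopes of 0.13 in OSCA-40, -0.02 in OSCA-30 and -0.04 in OSCA-32. All 8 tissues lay above all 3 cell lines, and the slowest rise of a tissue was still several times that of OSCA-40. The mean was 1.34 ± 0.50 (SD, n = 8) for the tissues and 0.02 ± 0.09 (SD, n = 3) for the cell lines, a difference of -1.32 (exact permutation of the library labels, two-sided, p = 0.00606, which is the lowest value possible with 8 and 3 libraries). Within the tissues, the kits overlapped: the slopes averaged 1.59 ± 0.33 (SD, n = 4) for the kit for fibrous tissue and 1.09 ± 0.55 (SD, n = 4) for TRIzol (two-sided exact permutation test, p = 0.20). With all kept bins from position 0 to 1, the mean slopes were 1.75 ± 0.56 in the tissues (SD, n = 8) and 0.49 ± 0.09 in the cell lines (SD, n = 3). The cell lines therefore also rose towards the 3′ end when the outer exons were included, but less steeply than the tissues.

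**Figure D2:**
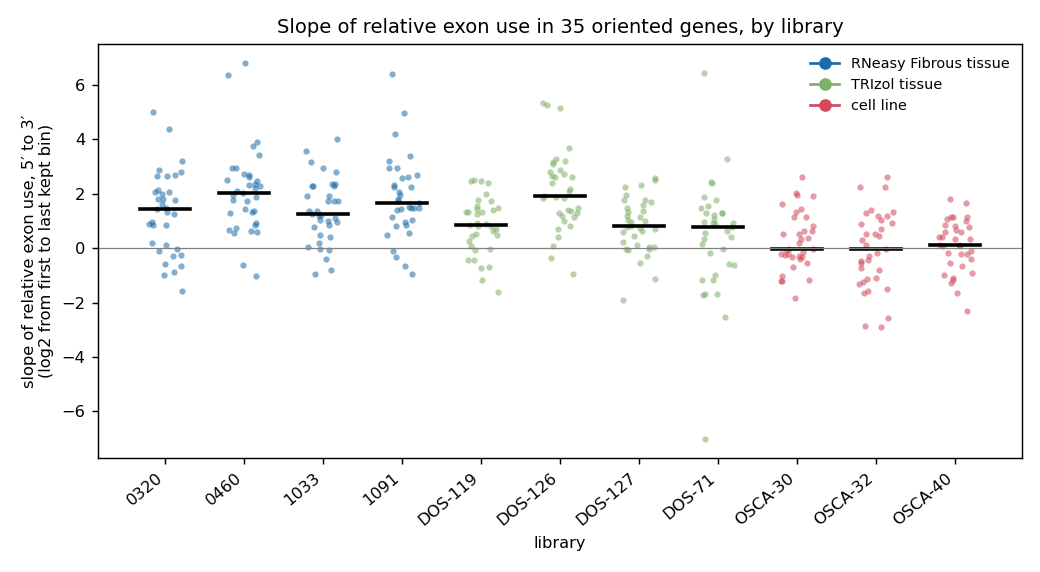
Slope of relative exon use from the 5′ to the 3′ end, in log2 units from the first to the last kept bin, for each of 35 genes (points) in each library, with the median over genes as a black bar. The medians of the 8 tissues lie between 0.79 and 2.03 and those of the 3 cell lines between -0.04 and 0.13.

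The file headers give lane labels that cut across the kinds of sample. DOS-126 and DOS-71 share both lane label and index, so that a lane label does not stand for a single run. Among the tissues, however, the lane labels split the libraries exactly as the kits did. All tissues of lane label 6 had the RNeasy Fibrous Tissue Mini Kit and all of lane label 7 had TRIzol. Kit and lane label therefore cannot be told apart within the tissues. Within lane label 6, which holds 4 tissues and 2 cell lines, the slope of the cell lines was lower by 1.63 on average, and within lane label 7, with 4 tissues and 1 cell line, it was lower by 0.97. Permuting the kinds within both lane labels at once, a test added after the data had been seen, gave a mean difference of -1.30 (two-sided exact permutation test, p = 0.0133). Lane label 6 alone gave p = 0.0667 in the exact permutation test, the lowest that its libraries allow. The paper states that sequencing libraries were prepared only from RNA that reached a set minimum of integrity. The integrity of the RNA of each library was not used here, and its part in the slopes was not tested.

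In the tissues, the sign of the slope was opposite on the strands when bins were taken in the order of their numbers. For the 14 genes on the plus strand the median slope by bin number was positive in all 8 tissues, from 0.04 in DOS-71 to 1.60 in 1091. For the 21 genes on the minus strand it was negative in all 8 tissues, from -0.85 in DOS-119 to -2.31 in 0460. The rise in the tissues thus followed the direction of transcription. In the 3 cell lines the slope by bin number was negative on both strands, from -0.36 to -0.07 on the plus strand and from -0.53 to -0.38 on the minus strand.

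Of the 35 genes, 34 had a lower mean slope in the cell lines than in the tissues, and the median difference was -1.18. The exception was LOC479708, with a difference of 0.06. The mean slope was positive in 30 genes for the tissues and in 18 genes for the cell lines. The genes share their libraries and are no independent replicates of this direction. Slopes of cell lines and tissues did not overlap in 12 of the 35 genes, while they did not overlap in 19% of all 3928 genes with members.

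When the slope was tested gene by gene over all 3928 genes (limma, Benjamini-Hochberg adjustment), 138 genes differed, or 3.51%, and 1527 had an unadjusted p below 0.05, or 38.9%. None of the 35 named genes was among the 138, although 18 had an unadjusted p below 0.05, and the lowest adjusted p among them was 0.0501 for AP2B1. Of the 138 genes, 107 had a smaller absolute slope in the cell lines than in the tissues. The median absolute mean slope was 1.28 in the tissues and 0.71 in the cell lines over all genes, and 2737 genes, or 69.7%, were flatter in the cell lines. This count rested on the weight given to single libraries. Without 0320, 0460, 1033, 1091, DOS-126 or any 1 of the cell lines it was between 2 and 5, and without DOS-71 it was 1296. With weights that limma estimated for each library it was 1827, or 46.5%, and 23 of the 35 named genes were then called, all with a lower slope in the cell lines. Between the kits of the tissues, limma called 0 genes, with 337 at an unadjusted p below 0.05, or 8.58%, and limma with library weights also called 0.

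Exportin-1, encoded by XPO1, carries proteins and RNA-protein complexes out of the nucleus through the nuclear pore. XPO1 (ENSCAFG00000003050, minus strand of chromosome 10, chr10:61539089-61588318, CanFam3.1) had 15 members, and bin 20 lies near its 5′ end at position 0.21. The deposited value of bin 20 was between 4.24 and 16.7 in the tissues, with a median of 13.8, and it was 33.0 in OSCA-30, 62.3 in OSCA-32 and 42.8 in OSCA-40. Its relative use ran from -2.30 to -1.27 in the tissues, with a median of -1.90, and was -0.96, -0.44 and -1.11 in the same cell lines. Every cell line thus lay above every tissue on both scales. The difference in relative use was 1.03 ± 0.27 (SE) and did not pass the threshold (limma, adjusted p = 0.137). The neighbouring bins 19 and 18 differed by 0.63 and 0.73, also without overlap of the groups, and none of them passed. Towards the 3′ end the order was turned around, with differences of -0.62 at bin 8 and -0.88 at bin 6, although the groups overlapped at bin 6. The slope of XPO1 was 3.73 ± 1.57 (SD, n = 8) in the tissues and 0.78 in the cell lines, and the groups did not overlap. With the linear trend removed, the difference of bin 20 was 0.17.

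THOC5 belongs to the THO complex, which couples the making of mRNA to its export. In THOC5 (ENSCAFG00000012262, minus strand of chromosome 26, chr26:22748175-22785305, CanFam3.1) the 3′ bin 5 at position 0.80 had deposited values from 59.96 to 224.6 in the tissues, with a median of 119.4. The values were 59.7 in OSCA-30, 40.7 in OSCA-32 and 36.8 in OSCA-40, so that the lowest tissue lay next to the highest cell line. Relative use was between -0.13 and 1.24 in the tissues, with a median of 0.54, and was -0.15, -0.67 and -0.20 in the cell lines. The difference was -0.89 ± 0.25 (SE; limma, adjusted p = 0.144). At the other end, bin 16 had a relative use from -0.84 to 0.47 in the tissues, with a median of -0.18, and of 0.42, 0.51 and 0.51 in OSCA-30, OSCA-32 and OSCA-40. DOS-71 alone among the tissues reached the level of the cell lines there, and the difference was 0.72 ± 0.23 (SE; limma, adjusted p = 0.163). As a whole, the level of THOC5 differed by -0.48 on the log2 scale in the cell lines (limma, adjusted p = 0.263). That of XPO1 differed by 0.32 (limma, adjusted p = 0.372), and neither passed the threshold.

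SMARCA5 is the ATPase of the ISWI chromatin remodelling complexes. Its bin 19 (ENSCAFG00000007525, plus strand of chromosome 15, chr15:42731532-42771601, CanFam3.1), at position 0.78, had deposited values of 103.5 to 143.8 in the tissues, with a median of 115.5, and of 93.4, 115.0 and 99.7 in OSCA-30, OSCA-32 and OSCA-40. These levels overlapped. On the scale of relative use the groups were apart, with 0.19 to 1.36 in the tissues, a median of 0.47, and values of 0.02, -0.37 and -0.09 in the cell lines. The difference was -0.77 ± 0.23 (SE; limma, adjusted p = 0.158), and it was -0.17 with the trend removed. The level of this bin was thus even across the libraries while its share of the transcript was not. This bin belongs to the exon sequences that the study had chosen for their even level over these and further libraries, and its even level is therefore no independent observation.

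AP2B1 encodes a subunit of the adaptor that recruits clathrin to the cell membrane. Bin 6 of AP2B1 (ENSCAFG00000018246, minus strand of chromosome 9, chr9:37947044-38078414, CanFam3.1) had the lowest adjusted p of all 338 members of named genes (limma, adjusted p = 0.125). Its relative use was between 0.46 and 1.14 in the tissues, with a median of 0.76, and was 0.22, -0.57 and 0.18 in OSCA-30, OSCA-32 and OSCA-40. The lowest value was that of OSCA-32, a shallow library, and the difference was -0.83 ± 0.18 (SE). After removal of the trend, the difference of this bin was still -0.38, the farthest from 0 of the bins described so far. It was chosen for mention after its values had been seen.

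**Figure D3:**
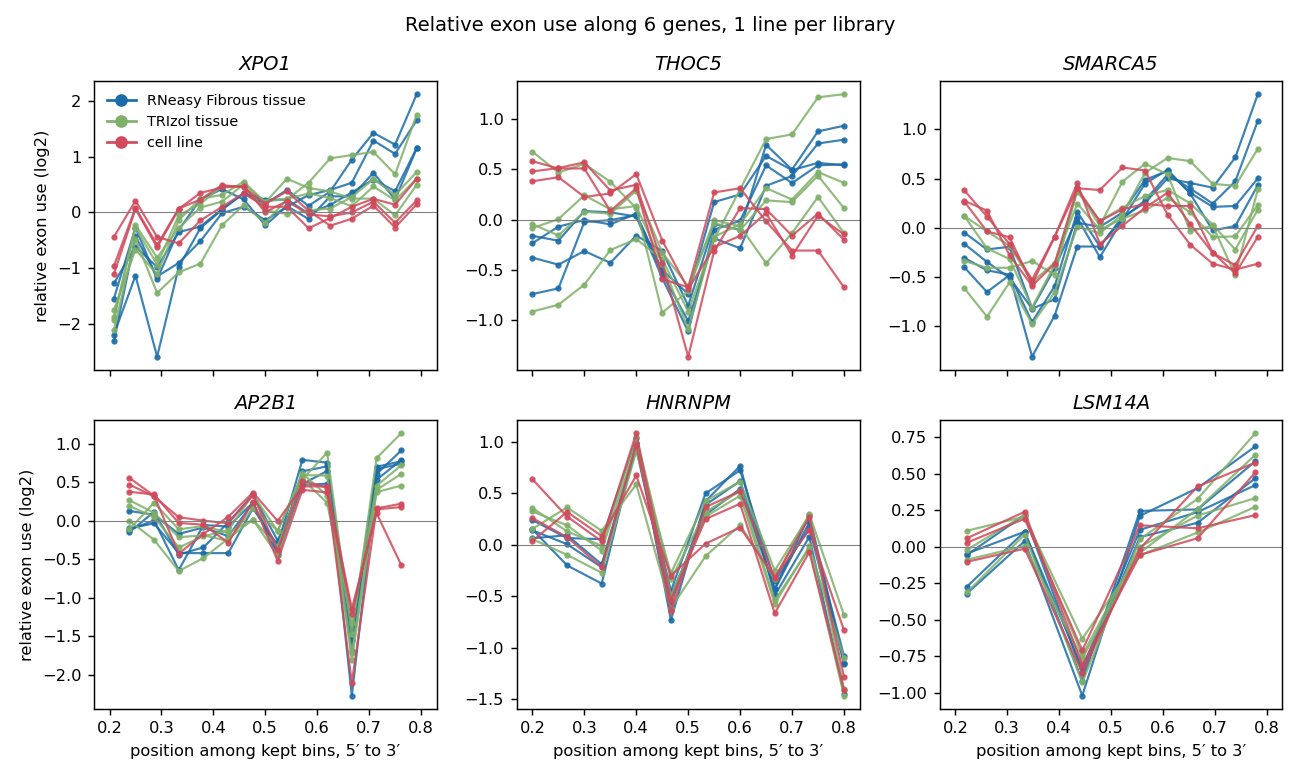
Relative exon use on the log2 scale against the position among the kept bins, from the 5′ to the 3′ end, for 6 genes, with 1 line per library (blue, tissues of the RNeasy Fibrous Tissue Mini Kit; green, tissues of TRIzol; red, cell lines). In XPO1, THOC5, SMARCA5 and AP2B1 the red lines start higher and end lower than most tissue lines, whereas in LSM14A, whose differences stay between -0.09 and 0.12, the lines run together.

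The same direction was seen at the member of largest difference in each of the other 6 genes of the list of stable exons that had members, but with smaller differences. HNRNPUL1, HNRNPL and HNRNPR encode heterogeneous nuclear ribonucleoproteins, which coat nascent transcripts and take part in their splicing. In HNRNPUL1, bin 4 at position 0.80 had a relative use of 0.13 to 0.68 in the tissues, with a median of 0.41, against -0.16, -0.03 and 0.13 in OSCA-30, OSCA-32 and OSCA-40. The lowest tissue and OSCA-40 were nearly equal, and the difference was -0.44 ± 0.13 (SE; limma, adjusted p = 0.155). In HNRNPL, which regulates splicing by binding to repeats of C and A, bin 10 at position 0.75 had a relative use of 0.99 to 1.54 in the tissues, with a median of 1.21, and of 0.86, 0.96 and 0.88 in the cell lines. Its deposited values overlapped widely, from 510.0 to 1083.6 in the tissues and from 487.3 to 656.7 in the cell lines. The difference in relative use was -0.30 ± 0.12 (SE; limma, adjusted p = 0.230). In HNRNPR, bin 8 at position 0.78 differed by -0.35 ± 0.13 (SE; limma, adjusted p = 0.196), with overlap of the groups through DOS-71 at -0.13.

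The remaining members of this kind did not separate the groups. ANKFY1 encodes an effector of endosomal traffic, and its bin 19 at position 0.22 had deposited values from 6.64 to 42.0 in the tissues and from 36.0 to 42.6 in the cell lines. Its relative use was 0.36 ± 0.23 higher in the cell lines (SE; limma, adjusted p = 0.415), and the tissue 1091 was lowest with -0.84. NADK makes NADP from NAD, and its bin 9 at position 0.20 had values from 65.4 to 94.2 in the tissues and of 88.3, 108 and 86.6 in the cell lines, with a difference of 0.19 ± 0.14 in relative use (SE; limma, adjusted p = 0.495). LSM14A is a component of cytoplasmic granules that store untranslated mRNA. Its member with the largest difference, bin 8, differed by 0.12 ± 0.13 (SE; limma, adjusted p = 0.631), and all of its 6 members had differences between -0.09 and 0.12. Relative exon use of LSM14A thus showed no difference that this number of libraries could detect.

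**Figure D4:**
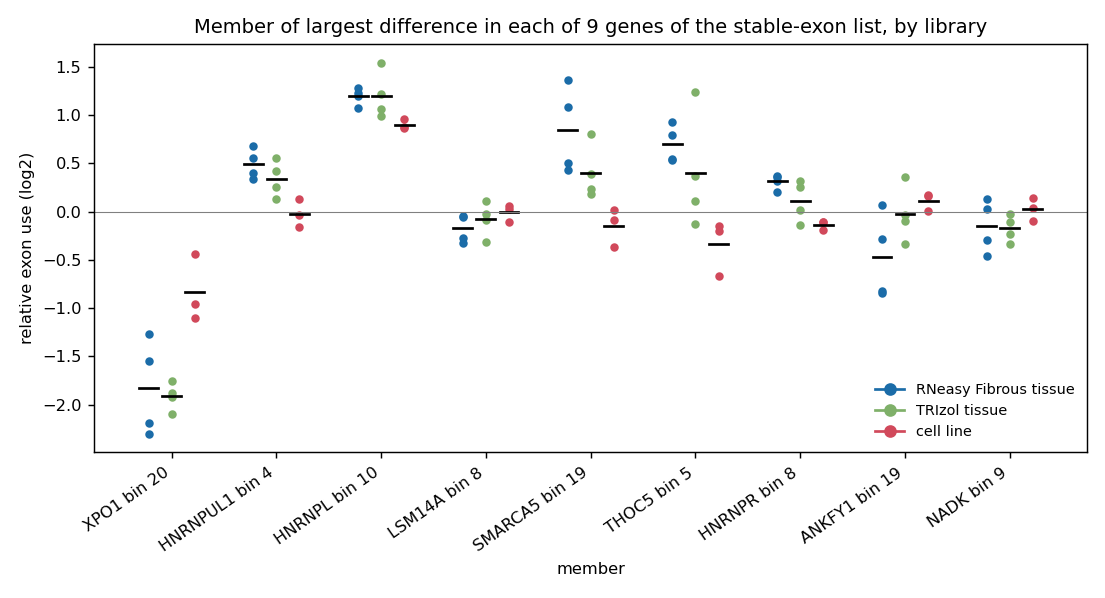
Relative exon use on the log2 scale of the member with the largest difference between kinds in each of 9 genes of the list of stable exons, by library (points) with the mean of each set of libraries (bars). The groups are apart in XPO1, HNRNPUL1, HNRNPL, SMARCA5 and THOC5, and they overlap in the other 4 genes.

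Counted over all members of the 35 genes, 0 of 338 passed the threshold (limma, Benjamini-Hochberg adjustment over all 38959 members), and 66 had an unadjusted p below 0.05. The background of this call was 0.0205% of all members (0.0077% higher and 0.0128% lower in the cell lines), and an unadjusted p below 0.05 was found in 18.6% of all members against 19.5% of the named ones. A test by gene with edgeR (diffSpliceDGE) also called 0 of the named members. Over all 38959 members it called 8, or 0.0205%, 7 higher and 1 lower in the cell lines. Of these calls, 2 were shared with limma, and 0.424% of all members had an unadjusted p below 0.05 in the edgeR test. However, this edgeR test missed every known change when it was checked, and its 0 is no evidence here. Groups did not overlap in 42 of the 338 members, 17 with the cell lines above and 25 with the cell lines below, or 12.4%, where the background was 7.71% (3.35% above and 4.36% below). In this test no named gene held a called member in either direction, and the differences ranged from the -0.89 of THOC5 bin 5 to the 1.03 of XPO1 bin 20.

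By role, the 2 genes of nuclear export, XPO1 and THOC5, had 28 members, of which 14 had an unadjusted p below 0.05 and 10 were without overlap. The 5 genes of chromatin and transcription (SMARCA5, TTF2, GTF3C2, ELP2 and USP16) had 57 members, with 15 and 7. The 5 hnRNP genes had 43 members, with 5 and 3. In the 9 other genes of RNA binding and processing, among them TIAL1, SRRT and ZRANB2, there were 72 members, with 12 and 8. The 7 genes of protein sorting and vesicle traffic had 69 members, with 7 and 5. The 5 signalling genes, such as JAK1 and LCMT1, had 50 members, with 9 and 7. TBCE, a tubulin chaperone, had 10 members, with 4 and 2. Over all members, the shares were 18.6% and 7.71%. Nuclear export, chromatin and transcription, and TBCE lay above both, whereas the hnRNP and protein sorting groups lay below both. The other RNA-binding genes and the signalling genes lay below the former and above the latter. With the trend on position removed, 9 of 338 members had an unadjusted p below 0.05, or 2.66%, where the background was 5.5%, and the hnRNP and signalling groups had 0 each. Median slopes were lower in the cell lines in each of these groups. They fell from 2.53 in the tissues to -0.23 in the cell lines for nuclear export, from 1.71 to 0.11 for chromatin and transcription, and from 1.78 to 0.44 for the hnRNP genes.

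HNRNPM did not rise towards the 3′ end in either kind of sample. Its slopes were -1.92 to -0.81 in the tissues and -2.32 to -1.11 in the cell lines, so that it fell in all 11 libraries, and the groups overlapped.

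Of the exon sequences that the study had selected as most stable, 13 bins of 7 genes were members, and they are described here only, because they were chosen for a low CV over these and further libraries. Their differences in relative use lay between -0.77 and 0.33, with a median size of 0.19, which is close to the median size of 0.22 over all members and of 0.19 over the members of named genes. The groups did not overlap in 2 of the 13, SMARCA5 bin 19 and THOC5 bin 13, where the background over all members was 7.71%. In THOC5 bin 13 the relative use was between -0.19 and 0.29 in the tissues, with a median of 0.05, and was 0.45, 0.31 and 0.34 in OSCA-30, OSCA-32 and OSCA-40. The bins of LSM14A, NADK and HNRNPUL1 among them had differences between -0.13 and 0.19.

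Across all members, relative exon use of 8 bins differed between tissue and culture, 3 higher and 5 lower in the cell lines, while 7246 members had an unadjusted p below 0.05. In all 8 the groups did not overlap. In 5 of the 8, the mean of 1 kind of sample was under 10, and when a mean of at least 10 was required in each kind, limma called 0 of 31132 members, with 6015 at an unadjusted p below 0.05. Other tests called more members. limma with weights estimated for each library called 1018 members, or 2.61%, and an edgeR quasi-likelihood test of the recovered reads against the reads of the gene called 1277, or 3.28%. They shared 618 calls, all in the same direction, and all 8 calls of the unweighted test were among the former and 7 among the latter. Of the named members, limma with library weights called 8, namely THOC5 bins 6, 7, 16 and 17, TTF2 bin 17, TBCE bin 5, AP2B1 bin 6 and ZRANB2 bin 11, with adjusted p between 0.0375 and 0.0496. The edgeR test against the reads of the gene called bins of XPO1, THOC5, AP2B1, TRPC4AP, TTF2, TBCE and ZRANB2, for example XPO1 bin 20 with a difference of 1.08 (edgeR, adjusted p = 0.0210) and AP2B1 bin 6 with -0.63 (edgeR, adjusted p = 0.0273). This edgeR test was added after the data had been seen. With the trend on position removed, limma called 2 members, or 0.00513%, and with library weights, also added later, 42, or 0.108%. Members of the same gene that follow each other in the table moved together, with r = 0.67 between the differences of 35031 pairs of neighbours, and r = 0.19 once the trend was removed. These pairs share libraries and a gene mean, and the r is a description across members. Groups did not overlap in 3004 members, or 7.71%, and in 566 members, or 1.45%, after removal of the trend.

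Identifiers without a symbol are named for 3 of the called members. Bin 65 of ENSCAFG00000000326, at position 0.77 of its bins by number, had deposited values of 7.90 to 72.0 in the tissues and of 134.7, 38.3 and 34.3 in OSCA-30, OSCA-32 and OSCA-40. Its relative use was 0.96 to 1.53 in the tissues, with a median of 1.23, and 0.20, 0.11 and 0.02 in the cell lines, a difference of -1.15 ± 0.13 (SE; limma, adjusted p = 0.0154). With the trend removed, this difference was -0.17. Bin 97 of ENSCAFG00000012045 had deposited values of 8.48 to 23.5 in the tissues and of 26.7, 26.4 and 21.6 in the cell lines. Its relative use was -0.54 to 0.14 in the tissues, with a median of -0.27, and 0.98, 1.06 and 0.77 in the cell lines, a difference of 1.17 ± 0.16 (SE; limma, adjusted p = 0.0472). It was 0.60 with the trend removed. This gene was nearly level as a whole, at -0.19 on the log2 scale.

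ENSCAFG00000009537 held 4 of the 8 called members. Its bin 5 had deposited values of 4.43 to 20.3 in the tissues, and of 12.1, 2.40 and 38.9 in OSCA-30, OSCA-32 and OSCA-40, while the value of 2.40 stands for 1 read. Bins 10 to 16 of the same gene, in contrast, had means of 137.7 to 597.2 in the tissues and values of at most 1.77 in any cell line. The relative use of bin 5 was -4.20 to -1.20 in the tissues, with a median of -2.56, and 2.40, 1.23 and 3.27 in the cell lines, a difference of 4.87 ± 0.66 (SE; limma, adjusted p = 0.0472). Bins 5, 6 and 8 had values of 2.40 to 49.5 in culture, whereas its other members were at or near 0 there. Whether these bins overlap another gene cannot be told from the table, and the counting is not stated to use strand.

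The libraries were compared as a whole by Pearson's r of relative use across all members. The mean r was 0.69 over the 28 pairs of tissues, 0.61 over the 3 pairs of cell lines and 0.55 over the 24 mixed pairs. Pairs of the same kind exceeded mixed pairs by 0.13 (two-sided exact permutation test over the libraries, p = 0.0424). With the trend on position removed, mixed pairs had a mean r of 0.62, and the excess was 0.03 (two-sided exact permutation test, p = 0.721). Of the cell lines, OSCA-30 and OSCA-40 were alike, with r = 0.79, whereas OSCA-32 reached at most 0.52 with either. DOS-119 and DOS-127, the tissues with the most reads and low slopes, had the highest r of any pair, 0.87. They also had the highest mean r with the cell lines among the tissues, 0.67 each, and 1091 with 0.48 and DOS-71 with 0.48 the lowest. Without OSCA-32 the excess was 0.08 (two-sided exact permutation test, p = 0.289).

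**Figure D5:**
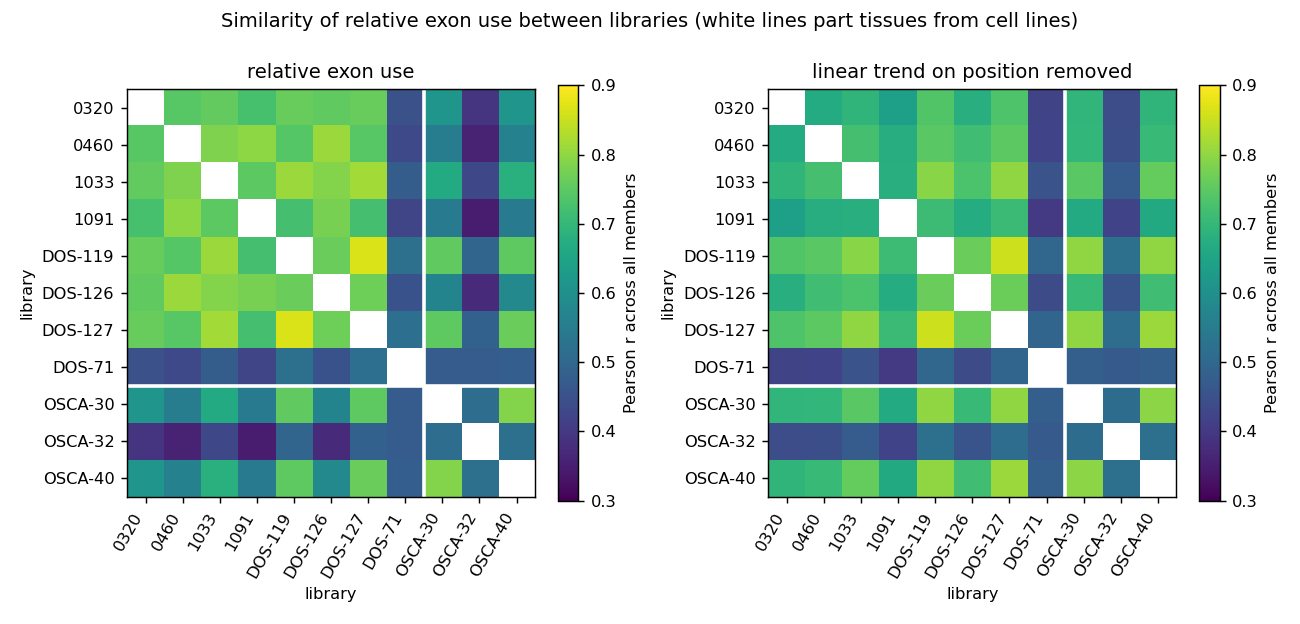
Pearson's r of relative exon use across all members between each pair of the 11 libraries, before (left) and after (right) removal of a linear trend on position, with white lines between tissues and cell lines. The mean r of mixed pairs is 0.55 on the left and 0.62 on the right, and DOS-71 and OSCA-32, the shallowest libraries, have low r with all others on both sides.

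Between the tissues prepared with different kits, limma called 0 of 38959 members, with 2449 at an unadjusted p below 0.05, or 6.29%. The recovered reads gave 1 call, or 0.00257%, with edgeR against the reads of the gene. The edgeR test by gene gave 0, with 0.154% at an unadjusted p below 0.05, and is again no evidence. The mean r was 0.76 within the tissues of the RNeasy Fibrous Tissue Mini Kit, 0.65 within those of TRIzol and 0.69 between them, and the spread within TRIzol, from 0.45 to 0.87, includes the shallow DOS-71. Set against the cell lines separately, the tissues of the RNeasy Fibrous Tissue Mini Kit gave 428 calls and those of TRIzol gave 1 (limma, Benjamini-Hochberg adjustment). These comparisons share the 3 cell lines, and the comparison between the kits is the test of their difference. Kit and lane label are the same split of the tissues, so this test cannot separate them.

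The share of members with an unadjusted p below 0.05 was 20.6% in the 691 genes that were lower by more than 1 on the log2 scale in the cell lines, 18.8% in the 2890 genes that moved by at most 1, and 13.7% in the 347 genes that were higher by more than 1. After removal of the trend these shares were 11.7%, 4.48% and 1.98%. The classes were formed on the level of the same genes in the same libraries. Of all members, 3466 had a mean under 10 in the cell lines and had passed the filter only through the tissues. For values not well above the added 1, relative use changes with the level of the gene. The shares therefore do not by themselves link level and exon use, and the part of low values in them was not tested. In bulk samples, fewer cells that use a gene and less RNA of it per cell cannot be told apart.

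Bins outside the middle part of the genes carried the largest differences. When all 67263 kept bins were tested, limma called 3080, or 4.58%, and 2334 of them were lower in the cell lines. The share called was 0.36% among bins within 0.1 of the middle position, 0.77% from 0.1 to 0.2, 2.45% from 0.2 to 0.3, 5.80% from 0.3 to 0.4 and 10.98% beyond. The median size of the difference rose with the distance from the middle in the same order, from 0.17 to 0.59.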

How the data were processed

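Poly(A) RNA sequencing of 8 tissues and 3 cell lines was used. The authors mapped reads with TopHat to CanFam3.1, kept unique matches, counted them on exon bins with DEXSeq scripts, and deposited these values as a normalized signal, 1 factor per library, whose method is not given in the sources used here. CASAVA 1.8.2 is named in the submitters' processing notes. All deposited values (100%, tolerance 0.01 reads) were whole multiples of 1 step per library, which gave the reads. Columns of other samples numbered 0.

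Relative use was tested with limma 3.58.1 (trend, R 4.3.3, no covariate) over all members, with Benjamini-Hochberg adjustment at 0.05. As alternatives, edgeR 4.0.16 was run on the recovered reads, as diffSpliceDGE by gene and, added later, as a quasi-likelihood test of each member with the gene's reads plus 1 as offset. Single values per library were compared by two-sided exact permutation. Python 3.11.15, numpy 2.4.6, scipy 1.17.1, pandas 2.3.3 and matplotlib 3.10.9 were used. Bin lengths were not used, so levels of different bins were not compared.

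In the simulated members, every library followed the same profile along a gene apart from the known changes, whereas the real libraries differed in slope. The shares found for simulated members therefore need not hold for the real data. Tested on simulated data for tissue against cell line with 38959 members, limma called 47 of 100 members changed 2-fold and 84 of 100 changed 4-fold. It also called 25 of 4938 unchanged members with a mean under 10 in 1 kind and 1 of 32098 with more, in genes without a changed member, so calls in genes near 0 are less reliable. diffSpliceDGE called 0 of either size. With gene totals as offset, edgeR called 84 and 97, and also 173 of 1723 unchanged members of genes with a changed member, where limma called 10. With library weights, limma called 67 and 89. It then also called 16 of these 1723 members, 35 of the 4938 and 8 of the 32098. For slopes in 3928 genes, limma called 169 of 200 genes changed by 2. It also called 32 of 1148 unchanged genes with a member under the minimum mean in 1 kind and 5 of 2392 others. With library weights, limma called 185 of the 200 changed genes, and 35 and 4 of these unchanged genes. Smaller changes of slope were not simulated, whereas the median difference of the named genes was -1.18.

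The members, named genes and lists were chosen with earlier results of these data known. Named were all genes that the study's lists of stable exons pair with 1 symbol and that had members (35 of 49), their members past the threshold, the member of largest difference in each gene of the list of stable exons, the selected bins, and at most 2 unnamed identifiers per direction. The reference table paired 0 identifiers. Tests of slopes by gene, library weights on them, and lane labels were added after seeing the data. Sequences of the bins are not printed. Values of some genes are not reported here.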

Additional observations from a re-analysis of the deposited data

Results flagged for a closer look

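Among 12 measures of the 8 tissues, 1 library stood far from the others, where chance would set apart about 1 in 20. DOS-71 had a mean r of 0.468 with the other tissues, against a median of 0.726 over the tissues, and the gap to the next tissue made up 0.858 of the whole range. DOS-71 has the fewest reads of all libraries (3123757), with a median of 10 reads per member. Its mean r with the cell lines was 0.476, nearly the same as with the tissues, and its median slope of 0.79 was the lowest of the tissues but did not stand apart. The part of depth in these values was not tested.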

How the results depend on the processing

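The slope difference between cell lines and tissues kept its direction under all alternatives run and its side of the threshold under all but lane label 6 alone (-1.63, exact permutation p = 0.0667, the lowest possible there). It lay between -1.40 and -1.23 when 1 library was left out. The number of members called did not. Instead of 8, it was 34 with a pseudocount of 5, 2 with centring on the median, 2 with the trend removed, 1 with a minimum mean of 50, 154 with none, 0 for positions 0.3 to 0.7 (3352 unadjusted), 3080 with all kept bins and 0 with a mean of 10 in each kind. It was 428 with the RNeasy Fibrous tissues, 1 with the TRIzol tissues, 1018 with library weights, 42 with weights and the trend removed, 1277 with edgeR and gene totals, 4 with the lane label as covariate, and 0 within lane label 6 (8231 unadjusted) and within lane label 7 (892 unadjusted). Leaving out 1 library gave 2 to 23, with 23 without DOS-71, 2 without 0460, 1091, DOS-119 or DOS-126, 3 without 0320, and 4 without DOS-127 or OSCA-32. Between the kits, edgeR with gene totals called 1.

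Instead of 138, the number of genes whose slope differed was 735 with a pseudocount of 5, 330 with a minimum mean of 50, 248 with a mean of 10 in each kind, 2348 with all kept bins, 1402 with the RNeasy Fibrous tissues, 1 with the TRIzol tissues, 574 with the lane label and 1827 with library weights. Leaving out 1 library gave 2 to 1296, with 1296 without DOS-71, 433 without DOS-119 and 419 without DOS-127. The excess in r of pairs of the same kind (0.133) was 0.0276 with the trend removed, 0.0589 with no minimum mean and 0.0893 for positions 0.3 to 0.7, each with an exact permutation p above the threshold. It was 0.0779 to 0.185 when 1 library was left out, and missed the threshold without 0320 (0.125), 0460 (0.114), 1033 (0.123), 1091 (0.117), DOS-126 (0.114) or OSCA-32 (0.0779).

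Differences turned in sign for HNRNPR bin 8 with the trend removed (0.0173), and with weights as well for HNRNPR bin 8 (0.0048), HNRNPL bin 10 (0.0616), ANKFY1 bin 19 (-0.0710) and NADK bin 9 (-0.0059), none of which passed a threshold. XPO1 bin 20 passed with all kept bins (limma, adjusted p = 0.0475) and THOC5 bin 5 against the RNeasy Fibrous tissues (limma, adjusted p = 0.0458). The causes were not tested. Without both DOS-71 and OSCA-32, which had the fewest reads, limma called 9 members. No paired analysis was possible because no tissue and cell line came from the same dog. Breed or age at diagnosis differed between every tissue and every cell line.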
